A study of Mus musculus with 22 samples.

Results

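The genes described here are 8 immediate early genes, Fos, Fosb, Jun, Junb, Atf3, Egr1, Ier2 and Dusp1, together with Klf2, a Krüppel-like transcription factor known from flow-exposed endothelium, and Pim3, a serine/threonine kinase. They are 10 of the 21793 protein-coding genes among the 54373 genes listed in the count tables of sorted mouse lung epithelial cells (ECs). All 10 passed the filter on low counts in both tables. Klf2 and Pim3 were added to the named immediate early genes as selected on their measured counts, because the difference between CYP1B1-/- and WT ECs depended on the state of the mice in these data, so their values in WT and CYP1B1-/- libraries are a description, and no test is given for them there. The 8 immediate early genes were tested in every comparison.

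ECs were sorted as live CD45- EpCAM+ cells, for which the study also names a CD31- gate, after enzymatic digestion of the lung from C57BL/6 WT mice and from whole-body AhR-/- and CYP1B1-/- mice backcrossed to C57BL/6. AhR is the aryl hydrocarbon receptor, a ligand-activated transcription factor, and CYP1B1 is a cytochrome P450 enzyme that its activity induces and that metabolises AhR ligands. The steady-state table holds 4 WT, 3 AhR-/- and 3 CYP1B1-/- libraries from untreated mice. The second table holds 4 libraries of each genotype from mice sensitised and challenged in the airways with house dust mite extract (HDM). By the methods, mice of this protocol were killed days after the last instillation. The methods describe male and female mice, matched by age and sex within experiments, and the labels give no age or sex per library. The labels do not say that replicates are separate mice, so p-values measure the spread between these libraries.

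The tables are named as separate sequencing runs, so that state and run cannot be told apart. Libraries held 9654825 to 17878442 counts in all, of which 7218689 to 14120921 at steady state and 1180756 to 16447855 after HDM fell on protein-coding genes outside a few dominant predicted genes. Levels are given as CPM (counts scaled to a common library size) on library sizes normalized by TMM over all 22 libraries, and 3 counts correspond to 0.107 to 1.36 CPM. The Y-linked gene Ddx3y stood at 19.7 to 99.8 CPM in the 10 steady-state libraries, at 67.3 and 69.6 CPM in AhR-/- HDM replicates 3 and 4, and at no more than 0.0859 CPM in the other 10 HDM libraries. Epcam, the sort marker, was present at 68.2 to 312 CPM throughout, while Cdh1, which encodes E-cadherin, was at 667 to 976 CPM in the steady-state libraries and at 192 to 321 CPM after HDM. Of 14 epithelial markers, 1 passed as higher and 5 as lower after HDM in WT ECs, 3 and 2 in AhR-/- and 3 and 6 in CYP1B1-/- ECs, and their summed level was 11531 to 27166 CPM at steady state and 4641 to 85424 CPM after HDM. The summed level of 16 hematopoietic markers was 252 to 512 CPM at steady state, 319 and 300.1 CPM in AhR-/- HDM replicates 3 and 4, and 478 to 7252 CPM in the other HDM libraries. Of these 16 markers, 14 passed the test as higher after HDM in WT ECs, 13 in AhR-/- and 14 in CYP1B1-/- ECs, while Csf1r was lower in both knockouts, and Cd3e was at 0 in 1 AhR-/- HDM library. Of all genes tested, 19.0% passed as higher and 19.4% as lower in WT, 10.6% and 10.1% in AhR-/-, and 15.5% and 17.9% in CYP1B1-/- ECs. Counts over the whole gene did not fall in the knockouts: Ahr stood at 12.8 to 25.5 CPM in AhR-/- ECs and at 6.38 to 20.0 CPM in WT ECs over both states, and Cyp1b1 at 3.62 to 13.5 CPM in CYP1B1-/- ECs, above the 0.644 to 2.31 CPM of all WT libraries. Genotypes are therefore those of the labels.

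Immediate early genes are transcribed within minutes of a stimulus from factors already present in the cell, mainly through MAP kinases, the serum response factor SRF and its ETS partners, and CREB. They respond to growth factors, cytokines, stretch and stress, and also to the enzymatic dissociation of tissue. Fos and Jun proteins pair into the transcription factor AP-1, Egr1 is a zinc finger factor, and Dusp1 is a phosphatase that switches MAP kinases off again.

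Promoter windows of RefSeq on GRCm38.p6, from 250 bases before to 50 bases after the transcription start, were matched for 8 of the 10 genes, and not for Egr1 and Ier2. Those of Fos, Fosb and Junb are shown because these genes passed as higher after HDM in WT and CYP1B1-/- ECs. The window of Dusp1 is shown because it went the other way, and that of Pim3 as the clearest decrease of the 10 genes in AhR-/- ECs. Capitals mark matches, on either strand, to the cAMP response element (CRE, TGACGTCA), to its core (TGACG, which also lies within the full element) and to an EGR element (GCGNGGGCG). The windows lie at chr12:85473640-85473939 on the plus strand (Fos), chr7:19309996-19310295 on the minus strand (Fosb), chr8:84978699-84978998 on the minus strand (Junb), chr17:26508423-26508722 on the minus strand (Dusp1) and chr15:88861944-88862243 on the plus strand (Pim3).
Fos: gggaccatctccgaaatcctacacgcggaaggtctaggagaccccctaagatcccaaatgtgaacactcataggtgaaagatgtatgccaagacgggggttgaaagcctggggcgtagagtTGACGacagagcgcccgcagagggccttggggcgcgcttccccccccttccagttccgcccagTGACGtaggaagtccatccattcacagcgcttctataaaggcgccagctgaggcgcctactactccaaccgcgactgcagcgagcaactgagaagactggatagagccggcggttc
Fosb: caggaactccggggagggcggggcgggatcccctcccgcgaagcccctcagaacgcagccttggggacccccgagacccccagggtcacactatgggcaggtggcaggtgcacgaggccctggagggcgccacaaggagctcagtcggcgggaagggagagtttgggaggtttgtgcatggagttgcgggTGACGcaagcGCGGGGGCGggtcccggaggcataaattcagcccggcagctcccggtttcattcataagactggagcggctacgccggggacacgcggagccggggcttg
Junb: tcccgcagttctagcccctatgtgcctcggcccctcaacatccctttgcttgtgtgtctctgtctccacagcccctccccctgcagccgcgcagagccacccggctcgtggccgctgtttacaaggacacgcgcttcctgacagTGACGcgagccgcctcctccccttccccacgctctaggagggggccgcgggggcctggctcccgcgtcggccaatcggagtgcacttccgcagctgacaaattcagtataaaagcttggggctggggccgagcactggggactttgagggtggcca
Dusp1: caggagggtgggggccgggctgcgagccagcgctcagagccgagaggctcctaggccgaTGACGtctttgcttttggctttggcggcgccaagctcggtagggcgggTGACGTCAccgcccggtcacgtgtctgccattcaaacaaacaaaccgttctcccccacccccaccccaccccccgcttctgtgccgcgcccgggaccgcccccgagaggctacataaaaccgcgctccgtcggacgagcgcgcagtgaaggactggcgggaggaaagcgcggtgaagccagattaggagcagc
Pim3: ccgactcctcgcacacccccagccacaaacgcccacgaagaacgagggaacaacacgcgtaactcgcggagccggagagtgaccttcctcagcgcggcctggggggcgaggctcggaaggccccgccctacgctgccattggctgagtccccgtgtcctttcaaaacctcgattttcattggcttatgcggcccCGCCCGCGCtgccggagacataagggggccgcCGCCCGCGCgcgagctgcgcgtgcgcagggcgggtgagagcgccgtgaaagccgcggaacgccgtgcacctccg
A CRE core was present in 6 of the 8 windows (Atf3, Dusp1, Fos, Fosb, Junb and Klf2), against 20.8% of the 32851 windows in the RefSeq table. The full CRE was found in Dusp1 alone among the 8, and in 1.79% of all windows. The EGR element occurred in Fosb, Klf2 and Pim3 and in 5.55% of all windows, and in these letters it overlapped GC boxes (GGGCGG). A GC box was present in 7 of the 8 windows, all but that of Junb, and in 35.7% of all windows. The AP-1 element (TGANTCA, 7.81% of all windows) and the CArG box bound by SRF (1.63%) had no match in these 8 windows. In Fos the CRE core lay at -129 to -125 and at -66 to -62 from the start, in Fosb at -60 to -56 and in Junb at -106 to -102. A match describes letters and is not a site in use.

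In WT ECs, 6 of the 8 immediate early genes rose after HDM and none passed as lower, although Dusp1 did so by DESeq2. Of the 16639 genes tested in this comparison, 38.4% passed at 0.05 after Benjamini-Hochberg adjustment of the quasi-likelihood p-values of edgeR, 19.0% of all as higher and 19.4% as lower. The risen genes were Ier2, Fos, Fosb, Junb, Atf3 and Egr1, with log2 fold changes of 3.91 to 1.32, while Jun and Dusp1 did not pass. The median log2 fold change of the 8 genes was 2.21, and that of all genes tested was -0.11. Fos, Fosb and Ier2 were higher in each of the 12 HDM libraries than in any of the 10 steady-state libraries, which held for 2.74% of the genes tested. With a hematopoietic marker score as covariate, 0 of the 8 genes passed in WT: Fosb was then at 0.98, Fos at 2.52, Ier2 at 1.90 and Atf3 at -0.20, and 11 genes of all those tested passed. Marker sums did not overlap between the states in WT ECs, at 262 to 512 CPM at steady state and 2050 to 6937 CPM after HDM. Score and state can hardly be told apart there, and the lost calls do not show what the rise comes from.

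**Figure D1:**
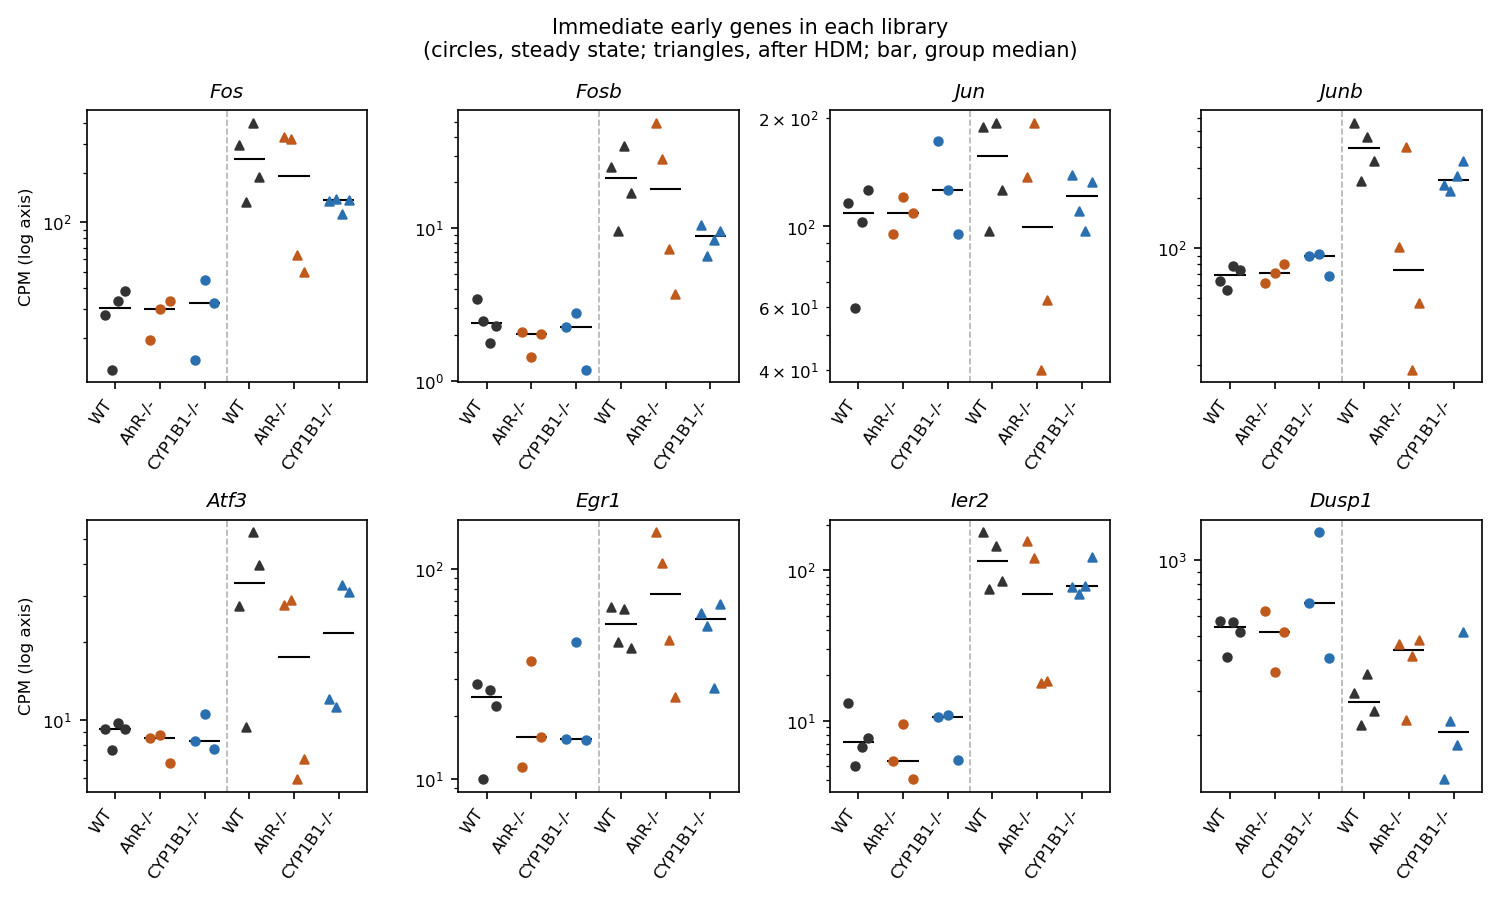
CPM (log axis) of the 8 immediate early genes in each library, with circles for steady state, triangles for HDM, and a bar at each group's median. Fos, Fosb and Ier2 sit higher in all 12 HDM libraries than in the 10 steady-state ones, and in AhR-/- HDM ECs 2 libraries lie well below the other 2 for each of them.

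Fos (chromosome 12, 85473890 to 85477273, GRCm38), the AP-1 subunit that cannot pair with itself, stood in steady-state WT ECs at 27.7, 12.8, 33.3 and 38.2 CPM and after HDM at 295, 133, 402 and 188 CPM. The groups did not overlap, which held with higher HDM levels for 17.7% of genes in WT, 12.7% in AhR-/- and 14.2% in CYP1B1-/- ECs. The mean rose from 28.0 ± 11.03 (SD, n = 4) to 255 ± 119 CPM (SD, n = 4), with a log2 fold change of 3.18 (SE 0.55, adjusted p = 8.76e-05, edgeR). AhR-/- ECs held 19.3, 30.1 and 33.6 CPM at steady state and 330.5, 318, 63.7 and 50.4 CPM after HDM. CYP1B1-/- ECs held 14.7, 44.7 and 32.5 CPM at steady state and 135, 139, 113 and 136 CPM after HDM. Fos also rose in these genotypes, by a log2 fold change of 2.79 (SE 0.60, adjusted p = 0.00335, edgeR) in AhR-/- and 2.09 (SE 0.58, adjusted p = 0.0071, edgeR) in CYP1B1-/- ECs. The 4 CYP1B1-/- HDM libraries lay close together, and the AhR-/- ones fell apart into a high and a low pair. In the order of group medians, WT HDM (242 CPM) stood above AhR-/- HDM (191 CPM) and CYP1B1-/- HDM (136 CPM), each overlapping the next, and the 3 steady-state groups followed at 30.1 to 32.5 CPM, also overlapping.

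Fosb (chromosome 7, 19302696 to 19310051), a second Fos family subunit, was the least abundant of the 8 per length, at 0.400 CPM per kb of exon in steady-state WT ECs against 11.9 for Fos. Its WT levels were 3.46, 2.47, 1.76 and 2.30 CPM at steady state and 25.3, 9.64, 34.5 and 17.1 CPM after HDM, a log2 fold change of 3.12 (SE 0.56, adjusted p = 0.000138, edgeR). In AhR-/- ECs it went from 2.10, 1.44 and 2.03 CPM to 49.3, 28.7, 7.28 and 3.71 CPM, where the last 2 values rest on 16 and 21 counts. The log2 fold change was 3.62 (SE 0.64, adjusted p = 0.00101, edgeR). CYP1B1-/- ECs had 2.27, 2.79 and 1.18 CPM at steady state and 10.5, 6.63, 8.35 and 9.55 CPM after HDM. Fosb rose there by 2.07 on the log2 scale (SE 0.61, adjusted p = 0.0107, edgeR), and without CYP1B1-/- steady-state replicate 4 the value was 1.79 with an adjusted p of 0.0649 (edgeR). The HDM and steady-state libraries of all 3 genotypes did not overlap for Fosb.

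Junb (chromosome 8, 84974484 to 84978718), a Jun family partner that in many settings counters Jun, was high in WT and CYP1B1-/- ECs after HDM. WT libraries held 63.7, 56.2, 77.5 and 73.5 CPM at steady state and 562, 251, 461 and 332 CPM after HDM, with a log2 fold change of 2.57 (SE 0.57, adjusted p = 0.000945, edgeR). In CYP1B1-/- ECs the levels were 89.8, 92.1 and 68.3 CPM and then 239.5, 220.5, 269 and 333 CPM, a rise by 1.67 on the log2 scale (SE 0.61, adjusted p = 0.0365, edgeR). That call was lost without any of CYP1B1-/- HDM replicates 3 and 4 and steady-state replicates 3 and 4, with log2 fold changes of 1.67, 1.55, 1.75 and 1.55 and adjusted p-values of 0.0557 to 0.128 (edgeR). AhR-/- ECs had 61.5, 71.0 and 80.7 CPM at steady state and 102, 403, 18.7 and 46.7 CPM after HDM. The last 2 libraries lay below every steady-state library of the series, and the first 2 above. The log2 fold change of 1.01 in AhR-/- ECs did not pass (SE 0.59, adjusted p = 0.236, edgeR). It was 1.47 without HDM replicate 3 (adjusted p = 0.0371, edgeR) and -0.26 without HDM replicate 2 (adjusted p = 0.678, edgeR), so that its direction rested on 1 library. An overlap of 7.52% of the Junb exon bases with Prdx2 on the opposite strand leaves part of its reads uncertain, since the counting is not stated to use strand.

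Jun (chromosome 4, 95049034 to 95052222), the central partner of Fos in AP-1, did not pass in any genotype. WT ECs held 116, 59.4, 103 and 126 CPM at steady state and 188, 97.4, 194 and 126 CPM after HDM. The log2 fold changes were 0.58 (SE 0.38, adjusted p = 0.233, edgeR) in WT, 0.01 (SE 0.40) in AhR-/- and -0.13 (SE 0.40) in CYP1B1-/- ECs, and both knockouts were far from the threshold (adjusted p = 0.993 and 0.861, edgeR). Jun was at 31.7 CPM per kb in steady-state WT ECs, above the 11.9 of Fos and near the 29.4 of Junb. AhR-/- HDM ECs again had the widest range, with 137, 194, 40.0 and 62.7 CPM. On the opposite strand, Junos overlaps 7.28% of the Jun exon bases.

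Atf3 (chromosome 1, 191170296 to 191218039), a stress-induced factor of the ATF family that can pair with Jun proteins, lay at 6.83 to 10.6 CPM in the 10 steady-state libraries. After HDM, WT ECs held 27.6, 9.39, 53.1 and 39.7 CPM, AhR-/- ECs 27.9, 29.1, 5.91 and 7.07 CPM, and CYP1B1-/- ECs 12.1, 11.2, 33.3 and 31.2 CPM. In WT ECs Atf3 rose by 1.86 on the log2 scale (SE 0.49, adjusted p = 0.00404, edgeR), although WT HDM replicate 2 lay within the steady-state range. The differences of 1.17 (SE 0.53, adjusted p = 0.121, edgeR) in AhR-/- and 1.33 (SE 0.53, adjusted p = 0.0578, edgeR) in CYP1B1-/- ECs did not pass. Without AhR-/- HDM replicate 3 or 4 the former was 1.49 and 1.51 (adjusted p = 0.0366 and 0.0323, edgeR). Without CYP1B1-/- HDM replicate 1 or 2 the latter was 1.66 in both cases (adjusted p = 0.0208 and 0.0148, edgeR). With all libraries, the CYP1B1-/- difference also passed by the likelihood ratio test (adjusted p = 0.041, edgeR), with RLE normalization (0.0266), without the filter on low counts (0.047), without the dominant predicted genes (0.035) and by DESeq2 (0.014), but not with the replicate block (0.0933), and it was -0.73 with the hematopoietic marker score as covariate, so the call rests on the processing.

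Egr1, an immediate early zinc finger factor, stood in WT ECs at 28.2, 9.94, 26.5 and 22.3 CPM at steady state and at 65.7, 44.9, 64.4 and 41.8 CPM after HDM. It rose by 1.32 on the log2 scale (SE 0.50, adjusted p = 0.0402, edgeR). This call was the weakest in WT: it was lost without HDM replicate 1 or 3 or steady-state replicate 2, 3 or 4, with log2 fold changes of 1.08 to 1.43 and adjusted p-values of 0.0566 to 0.122 (edgeR). AhR-/- ECs went from 11.4, 36.5 and 15.7 CPM to 149.6, 106, 46.0 and 24.4 CPM, a rise by 1.95 (SE 0.56, adjusted p = 0.0177, edgeR). That call was lost without AhR-/- HDM replicate 1 (log2 fold change 1.48) or steady-state replicate 1 (1.65) or 4 (1.77), with adjusted p-values of 0.0753, 0.0932 and 0.0937 (edgeR). CYP1B1-/- ECs held 15.5, 45.0 and 15.3 CPM and then 61.9, 53.3, 27.0 and 67.8 CPM, and the difference of 1.05 did not pass (SE 0.54, adjusted p = 0.154, edgeR). Without steady-state replicate 3, whose Egr1 level was near the HDM levels, it was 1.77 (adjusted p = 0.0383, edgeR). By DESeq2 with all libraries it was 1.23 and passed (adjusted p = 0.0489).

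Ier2 (chromosome 8, 84661331 to 84662852), a small nuclear regulator, had the largest fold change of the 10 genes in all 3 genotypes. In AhR-/- ECs Fosb was nearly equal to it, at 3.62. Steady-state levels were 13.1, 5.00, 6.71 and 7.59 CPM in WT, 5.39, 9.54 and 4.06 CPM in AhR-/- and 10.6, 10.95 and 5.48 CPM in CYP1B1-/- ECs. HDM levels were 179.8, 75.4, 145 and 85.4 CPM in WT, 156, 119.9, 17.7 and 18.2 CPM in AhR-/- and 77.7, 69.7, 78.5 and 123 CPM in CYP1B1-/- ECs. Every HDM library lay above every steady-state one, with AhR-/- replicates 3 and 4 nearest to them. Ier2 rose by 3.91 (SE 0.60, adjusted p = 3.24e-05, edgeR) in WT, by 3.64 (SE 0.67, adjusted p = 0.00121, edgeR) in AhR-/- and by 3.28 (SE 0.65, adjusted p = 0.000456, edgeR) in CYP1B1-/- ECs.

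Dusp1 (chromosome 17, 26505590 to 26562128), the feedback phosphatase, was the most abundant of the 10 genes per length at steady state, at 156 CPM per kb in WT ECs, and the only one of the 8 immediate early genes that passed as lower after HDM in any genotype. WT ECs held 573, 409.6, 569 and 516 CPM at steady state and 295, 219.7, 351 and 248.9 CPM after HDM, AhR-/- ECs 626, 359 and 516 and then 465, 229, 415 and 479 CPM, and CYP1B1-/- ECs 672, 1295 and 408 and then 133, 228, 184 and 517 CPM. In CYP1B1-/- ECs it fell by 1.58 on the log2 scale (SE 0.43, adjusted p = 0.00565, edgeR). Without steady-state replicate 3, which held the highest level, the value was -1.01 with an adjusted p of 0.107 (edgeR). In WT ECs the libraries of the 2 states did not overlap, which held with lower HDM levels for 21.2% of genes, and the log2 fold change of -0.89 did not pass (SE 0.40, adjusted p = 0.0824, edgeR), while by DESeq2 it was -0.83 and passed (adjusted p = 0.046). In AhR-/- ECs it was -0.33 (SE 0.43, adjusted p = 0.629, edgeR).

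**Figure D2:**
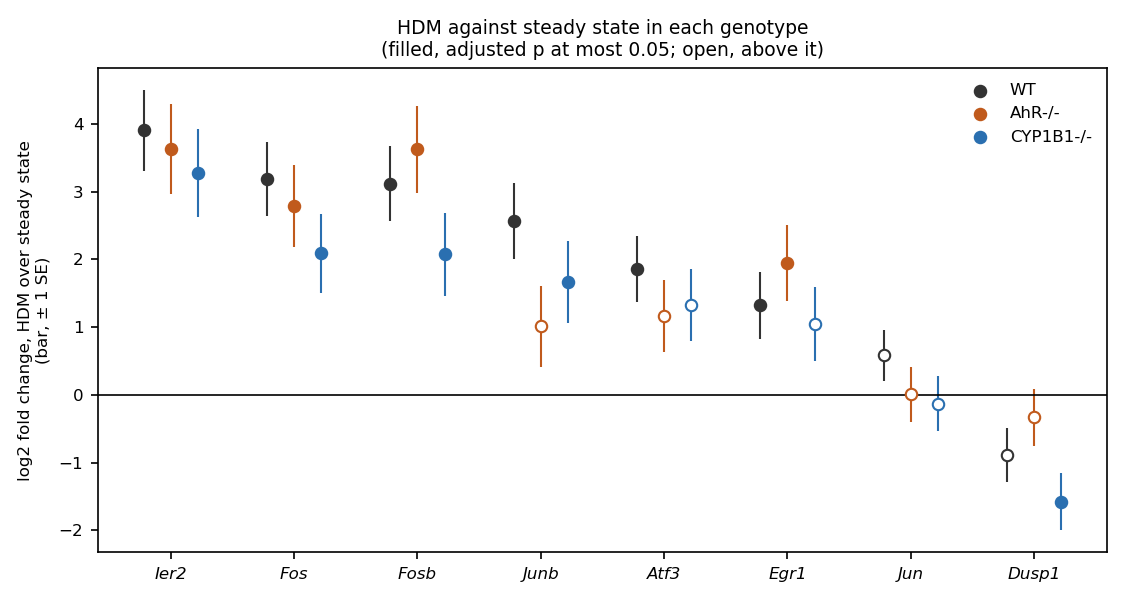
Log2 fold change of each immediate early gene between HDM and steady state, with bars of 1 SE, in WT (black), AhR-/- (orange) and CYP1B1-/- ECs (blue), and filled points where the adjusted p was at most 0.05. Ier2, Fos and Fosb are filled in all 3 genotypes, Jun in none, and Dusp1 lies below 0 with a filled point in CYP1B1-/- ECs.

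In AhR-/- ECs, 5 of the 10 genes passed between HDM and steady state, against 20.6% of the genes tested. Of these, 4 rose (Fos, Fosb, Ier2 and Egr1, against 10.6% of all genes) and 1 fell (Pim3, against 10.1%). With 1 library left out at a time, 4 to 8 of the 10 passed, and 1532 to 3935 of all genes. In CYP1B1-/- ECs, 5 of the 8 immediate early genes passed, against 33.4% of genes, 4 as higher (Fos, Fosb, Junb and Ier2, against 15.5%) and 1 as lower (Dusp1, against 17.9%). Without CYP1B1-/- steady-state replicate 4, 3 of the 8 passed. A call made in 1 genotype and missed in another does not show that they differ. The interaction of genotype and state, which tests that difference, was fitted for the 8 genes, and 0 passed for AhR-/- (0.0% of genes, lowest adjusted p = 0.292 for Junb, edgeR) and 0 for CYP1B1-/- (0.0% of genes). For AhR-/- the count of genes was 0 in this fit, 221 by the likelihood ratio test, 1236 by DESeq2 and 1017 without AhR-/- HDM replicate 2, so the count of 0 was not stable. In the last of these, 1 of the 8 passed, Junb. With all libraries, none of the 8 had an unadjusted p under 0.05 in either interaction. The point estimates for CYP1B1-/- were below 0 for all 8 genes, from -1.09 (SE 0.74) for Fos to -0.27 (SE 0.72) for Egr1, where 52.0% of all genes were below 0. These genes were measured in the same libraries and all but Dusp1 moved together within groups, so the shared sign is not 8 separate observations. Without AhR-/- HDM replicate 2, which had the highest Junb level of its group, the AhR-/- interaction for Junb was -2.91 (adjusted p = 0.0117, edgeR).

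AhR-/- HDM replicates 3 and 4 stood apart from replicates 1 and 2 in most of these genes. They carried the Y-linked reads and had hematopoietic marker sums within the steady-state range, where replicates 1 and 2 had 1431 and 1806 CPM. Their levels of Fos, Fosb and Ier2 lay above every steady-state library, at no less than 50.4, 3.71 and 17.7 CPM against steady-state maxima of 44.7, 3.46 and 13.1 CPM, and the Fosb value of 3.71 CPM rests on 21 counts. Jun in replicate 3, Junb in both and Atf3 in replicate 3 lay below every steady-state library. The values of Jun, Junb and Atf3 in replicate 3 rest on 88, 41 and 13 counts. Outside the dominant predicted genes, replicates 1 and 2 held 16447855 and 5288867 protein-coding counts, and replicates 3 and 4 only 1180756 and 2856737. With both libraries left out, a choice made after the data were seen, 8 of the 10 genes passed in AhR-/- ECs, against 23.6% of the genes tested in that fit, with 7 higher (15.2% of genes) and 1 lower (8.46%). Since these libraries had the lowest levels of their group in most of these genes, higher values after their removal follow from the choice itself, and the count supports nothing. Pim3 was then at -1.95 (adjusted p = 0.0112, edgeR).

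**Figure D3:**
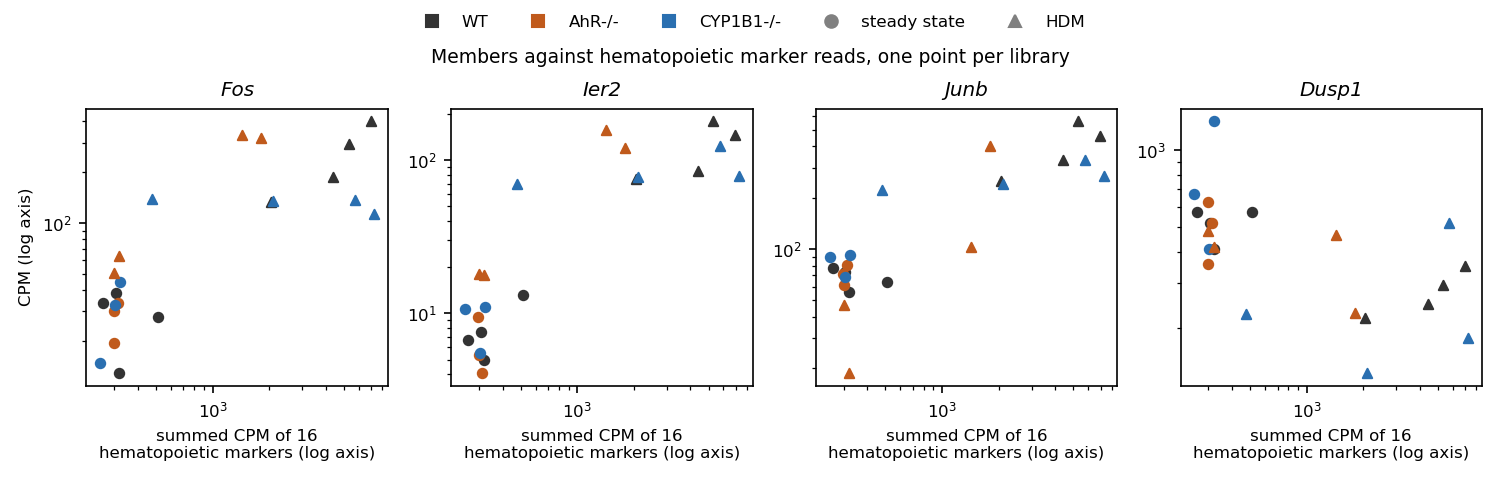
CPM of Fos, Ier2, Junb and Dusp1 against the summed CPM of 16 hematopoietic markers (both log axes), 1 point per library, circles for steady state and triangles for HDM, in black (WT), orange (AhR-/-) and blue (CYP1B1-/-). AhR-/- HDM replicates 3 and 4 sit at marker sums of 319 and 300.1 CPM among the steady-state libraries, and CYP1B1-/- HDM replicate 2 at 478 CPM.

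Marker reads of blood cells moved with the state, as given above, and their part in these changes was not tested. Fewer cells of a type and less RNA per cell cannot be told apart in bulk libraries. In WT HDM ECs, Fos followed the order of the hematopoietic marker sums, at 133, 188, 295 and 402 CPM beside sums of 2050, 4404, 5295 and 6937 CPM, and Ier2 was at 75.4, 85.4, 179.8 and 145 CPM in the same libraries. In AhR-/- HDM ECs the libraries with sums of 1431 and 1806 CPM held 330 and 318 CPM of Fos, and those with 300.1 and 319 CPM held 50.4 and 63.7 CPM. CYP1B1-/- HDM ECs had another order, with 139, 135, 136 and 113 CPM of Fos beside sums of 478, 2102, 5748 and 7252 CPM. CYP1B1-/- HDM replicate 2 had a marker sum of 478 CPM, below the highest steady-state sum, and Ptprc, which encodes CD45, at 26.2 CPM. Its Fos level of 139 CPM and its Ier2 level of 69.7 CPM were above all steady-state libraries. CYP1B1-/- HDM replicate 3 had the highest sum (7252 CPM) with a Ptprc level of 614 CPM and a Fos level of 113 CPM. In WT and CYP1B1-/- ECs the marker sums did not overlap between the states, so that score and state can hardly be told apart. With the marker score as a covariate, 0 of the 8 genes passed in CYP1B1-/- ECs as in WT, while 121 of all genes tested did. There the log2 fold changes were 1.50 for Fos, 1.35 for Ier2, -0.03 for Fosb, 0.17 for Junb and -1.80 for Dusp1. In AhR-/- ECs Pim3 alone of the 10 passed in that fit (-2.05, adjusted p = 0.0492, edgeR), with 2.28 for Fos, 2.00 for Ier2, 1.93 for Fosb and 1.44 for Egr1, which did not pass. The summed level of 12 endothelial markers was 169 to 342 CPM at steady state and 37.9 to 189 CPM after HDM, with 1 marker (Pecam1, which encodes CD31) higher and 2 (Esam and Tek) lower in WT ECs.

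Between genotypes, none of the 8 immediate early genes passed in either state. Both knockouts were compared with the same WT libraries. At steady state, 0 of the 8 passed for AhR-/- (0.0% of 15547 genes tested) with log2 fold changes of -0.47 (Fosb) to 0.08 (Jun), and 0 for CYP1B1-/- (0.0129% of genes) with -0.35 (Fosb) to 0.53 (Dusp1). With 1 library left out at a time, the CYP1B1-/- values ran from -0.60 to -0.025 for Fosb and from 0.0095 to 0.87 for Dusp1. In the steady-state fits with all libraries, the SE was lowest for Junb (0.17) and highest for Egr1 (0.48). After HDM, 0 of the 8 passed for AhR-/-, where 22.1% of the 14161 genes tested did, and 0 for CYP1B1-/- (0.0% of genes). That 22.1% is 3129 genes and was not stable: 0 genes passed without AhR-/- HDM replicate 1, 3 or 4 or WT HDM replicate 3 or 4, 885 without WT HDM replicate 1, and 1 with the replicate block. The 8 genes had 0 unadjusted p-values under 0.05 in any of the 4 comparisons. The largest difference was that of Junb in AhR-/- ECs after HDM, at 142 ± 177 CPM against 402 ± 137 CPM in WT (SD, n = 4 each), a log2 fold change of -1.47 (SE 0.68, adjusted p = 0.13, edgeR). In the same comparison 6 of 16 hematopoietic markers were lower (median log2 fold change of the list -2.26), 1 of 14 epithelial markers was higher (median 1.08), and Junb was at -0.62 (adjusted p = 0.787, edgeR) with the hematopoietic marker score as covariate. The marker sums of these groups did not overlap, so that score and genotype can hardly be told apart there. Without AhR-/- replicate 2 the log2 fold change of Junb was -2.85 (adjusted p = 0.00656, edgeR), and without replicates 3 and 4 it was -0.69 (adjusted p = 0.448, edgeR). In CYP1B1-/- HDM ECs, Fosb was at 8.75 ± 1.66 CPM and Fos at 131 ± 12.0 CPM against 21.7 ± 10.7 and 255 ± 119 CPM in WT (SD, n = 4 each), with log2 fold changes of -1.20 (SE 0.60) and -0.84 (SE 0.54) that did not pass (adjusted p = 0.999 for both, edgeR). Over the alternative fits, the weakest values were -0.64 for Fosb and -0.33 for Fos.

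Klf2 (chromosome 8, 72319033 to 72321656) and Pim3 (chromosome 15, 88862186 to 88865726) are described by level. KLF2 is induced by laminar flow in endothelium through the MEKK-MEK5-ERK5-MEF2 cascade and also marks naive lymphocytes, and PIM3 is a short-lived kinase whose level is set mainly by transcription. Klf2 stood at steady state at 4.06, 2.78, 3.25 and 3.77 CPM in WT, 5.03, 4.25 and 4.31 CPM in AhR-/- and 10.8, 4.87 and 4.95 CPM in CYP1B1-/- ECs. After HDM it was at 7.13, 7.10, 6.85 and 3.21 CPM in WT, 13.3, 12.1, 5.00 and 4.24 CPM in AhR-/- and 2.16, 4.32, 2.67 and 4.33 CPM in CYP1B1-/- ECs. The 3 CYP1B1-/- libraries lay above the 4 WT libraries at steady state, as for 1.78% of genes, and so did the 3 AhR-/- libraries above the same WT libraries, as for 2.1% of genes. Both are descriptions, since the WT libraries entered the choice of the gene. After HDM the CYP1B1-/- and WT groups overlapped only through WT replicate 4. The CYP1B1-/- log2 fold change was 0.92 at steady state and -0.82 after HDM, and the interaction was -1.82. Without CYP1B1-/- steady-state replicate 2, whose Ddx3y level was the lowest of the steady-state libraries, the steady-state value was 0.41 and the interaction -1.23. With the hematopoietic marker score as covariate, the log2 difference of Klf2 between HDM and steady state in WT ECs was -0.047, against 0.79 without it. In CYP1B1-/- HDM replicates 1 and 2, Klf2 rests on 12 and 15 counts.

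Pim3 was at 41.6, 115, 74.7 and 132 CPM in WT, 154, 113 and 179.7 CPM in AhR-/- and 482, 116 and 168 CPM in CYP1B1-/- ECs at steady state. After HDM it was at 69.2, 44.7, 88.0 and 61.9 CPM in WT, 38.7, 34.7, 20.0 and 44.9 CPM in AhR-/- and 28.1, 45.8, 44.4 and 41.9 CPM in CYP1B1-/- ECs. WT levels overlapped between the states, while those of AhR-/- and CYP1B1-/- ECs were lower after HDM without overlap, as for 23.2% and 17.3% of genes. The CYP1B1-/- log2 fold change was 1.47 at steady state and -0.67 after HDM, with an interaction of -2.21, and without steady-state replicate 2 the first was 0.58 and the interaction -1.27. Against the same WT libraries, which entered the choice, the AhR-/- values were 0.71, -0.92 and -1.64, and no weight rests on their signs. Since the AhR-/- libraries did not enter the choice of these genes, the difference between the states was tested there. Pim3 fell by 2.10 on the log2 scale (SE 0.43, adjusted p = 0.00224, edgeR), from 149 ± 33.4 (SD, n = 3) to 34.6 ± 10.6 CPM (SD, n = 4). Klf2 did not pass (0.99, SE 0.40, adjusted p = 0.0854, edgeR), and without HDM replicate 3 or 4 it was 1.22 or 1.29 (adjusted p = 0.0404 and 0.0216, edgeR). In AhR-/- HDM replicates 3 and 4, Klf2 rests on 11 and 24 counts. By DESeq2 the difference of Klf2 was 1.03 and passed (adjusted p = 0.0441).

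**Figure D4:**
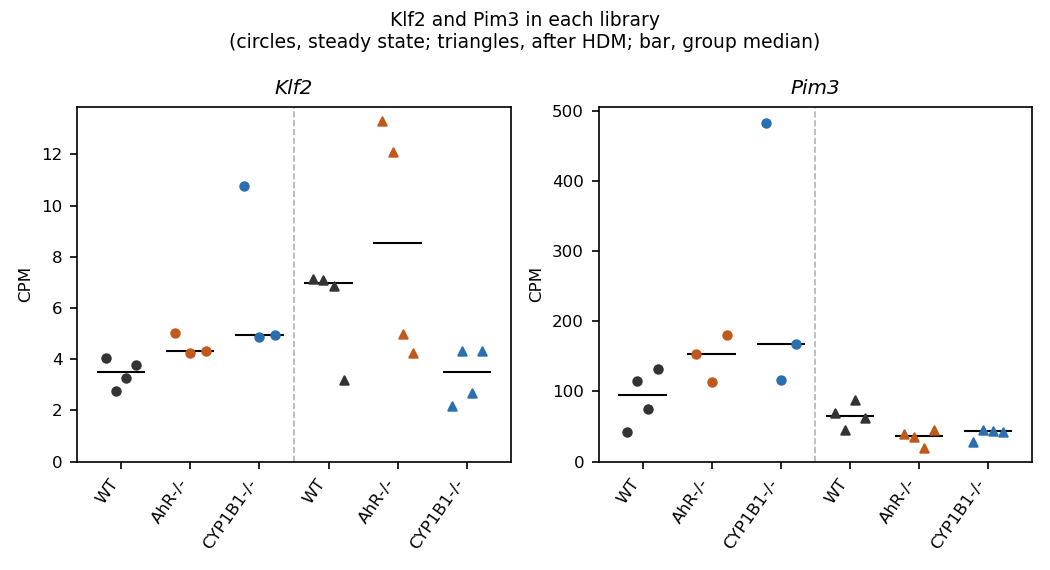
CPM of Klf2 and Pim3 in each library (linear axes from 0), circles for steady state and triangles for HDM, with a bar at each group's median. CYP1B1-/- steady-state replicate 2 is the highest library of its group for both genes, at 10.8 CPM of Klf2 and 482 CPM of Pim3.

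Across the other genes of these pathways the states differed in both directions. The shares of all genes to set beside the counts are those above, 19.0% higher and 19.4% lower in WT, 10.6% and 10.1% in AhR-/-, and 15.5% and 17.9% in CYP1B1-/- ECs. Of 38 further immediate early and primary response genes tested, 18 passed as higher and 6 as lower in WT ECs after HDM, 11 and 2 in AhR-/-, and 16 and 9 in CYP1B1-/- ECs, with medians of 0.77, 0.81 and 0.45. The clearest rises in WT were those of Zfp36l2 (4.93, SE 0.59, adjusted p = 6.5e-06, edgeR) and Zfp36 (3.04), which encode proteins that destabilise AU-rich mRNAs, and of Nr4a3 (4.70), an orphan nuclear receptor. Ccn1 (-2.99, SE 0.54, adjusted p = 0.00014, edgeR) and Ccn2 (-2.73), matricellular targets of YAP and SRF, and Ier3 (-1.78) fell. Zfp36l2 also had the lowest p among the rises in AhR-/- (4.23) and CYP1B1-/- ECs (4.35), with a larger fold change of 4.72 for Ier5 in AhR-/- ECs, and Ier3 fell in both (-1.21 and -2.34). Errfi1, a feedback inhibitor of the EGF receptor, fell in AhR-/- (-1.68) and CYP1B1-/- ECs (-2.57). Zfp36l2 stood at 0.554 to 1.99 CPM in the steady-state groups and at 3.71 to 60.05 CPM after HDM, and Ccn1 at 570 to 1299 CPM and 20.99 to 549 CPM. The groups of both genes did not overlap between the states, as is likely for genes named by their lowest p in these comparisons.

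Within the AP-1 family of 20 genes (members included), 7 of 19 tested rose and 3 fell in WT ECs after HDM, 4 and 1 in AhR-/-, and 5 and 2 in CYP1B1-/- ECs. Batf3, a factor of dendritic and T cells, went from 0.0460 to 0.203 CPM in WT at steady state to 8.12 to 31.5 CPM after HDM. Mafk, a small Maf protein, fell in WT (-0.88), AhR-/- (-1.56) and CYP1B1-/- ECs (-1.60). Among 27 genes upstream of SRF and the MAP kinases, 8 rose and 3 fell in WT, 6 and 3 in AhR-/-, and 9 and 4 in CYP1B1-/- ECs. In WT ECs Rps6ka1, the kinase RSK1, rose by 5.01, Elk3, an ETS partner of SRF, by 2.60 and Mrtfa, an SRF coactivator, by 2.30, while Egfr (-2.54), Braf (-2.15) and Erbb2 (-1.90) fell. The same 6 genes led in CYP1B1-/- ECs, with 3.18 for Elk3 and -2.72 for Egfr. The 13 KLF family genes held 2 higher and 3 lower in WT, 1 and 1 in AhR-/- and 1 and 5 in CYP1B1-/- ECs, in WT also near the shares of all genes. The hematopoietic marker sums given above were also higher in most HDM libraries, and their part in these lists was not tested.

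Among 15 genes that act, like Dusp1, as feedback on MAP kinases, 3 rose and 5 fell in WT and in CYP1B1-/- ECs, and 5 rose and 1 fell in AhR-/- ECs. Dusp5 and Dusp2, phosphatases of nuclear ERK, rose in WT (4.07 and 5.49) and CYP1B1-/- ECs (3.11 and 4.10), and Dusp14 (-3.39 and -3.08), Dusp8 (-2.16 and -2.49) and Dusp16 (-1.11 in both) fell. Of 15 genes around KLF2 and shear sensing, 3 rose and 3 fell in WT, 2 and 3 in AhR-/-, and 3 and 4 in CYP1B1-/- ECs, in WT near the 19.0% and 19.4% of all genes. Klf4, the close relative of Klf2, rose by 2.22 (SE 0.41, adjusted p = 0.000188, edgeR) in WT, 1.65 in AhR-/- and 1.85 in CYP1B1-/- ECs. Piezo1, a mechanically gated channel, fell by 1.40, 2.25 and 2.21 in these. Pim1, the paralogue of Pim3, rose by 4.29 (SE 0.68, adjusted p = 5.12e-05, edgeR) in WT, 3.06 in AhR-/- and 3.61 in CYP1B1-/- ECs. Of 14 heat shock genes, 3 rose and 3 fell in WT, with Hspa1a at 2.35 and Hspb1 at -2.35, with counts of 1 and 0 in AhR-/- and 2 and 2 in CYP1B1-/- ECs.

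Across the 22 libraries, with each gene's log2 CPM centred on its group mean, the immediate early genes other than Dusp1 moved together within groups. Their 21 pairs all had a positive Pearson r, from 0.44 to 0.87 (Jun and Junb) with a median of 0.73, while the median over all pairs of the 16639 genes tested was -0.015. Without AhR-/- HDM replicates 3 and 4, a choice made after the data were seen, r of the 21 pairs ran from 0.10 to 0.68 with a median of 0.41. Dusp1 had an r of -0.11 (with Junb) to 0.19 (with Atf3) with the other 7. These libraries share run and normalization within a state, and the values are a description. WT steady-state replicate 2 was the lowest of its group for 7 of the 8 genes, as was WT HDM replicate 2, and CYP1B1-/- steady-state replicate 3 was the highest for 7. The protein-coding genes most like the mean of the 8 were Mettl1 (r = 0.91), Plk2 (0.90), Nucb2 (0.89), Cdc42ep3 (0.88), Cep85 (0.87), Ints6l (0.87), Nfkbiz (0.86), Uhrf1bp1l (0.86), Nek6 (0.86) and Lpar3 (0.85), each over 22 libraries with those 2 included. For Klf2 they were Cd3g (0.82), Ldb1 (0.81) and Adora2b (0.80), and for Pim3 Ak3 (0.84), Atp9b (0.83) and Sned1 (0.80).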

How the data were processed

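The authors trimmed reads with bbduk, aligned them with GSNAP to the mouse genome mm10 and counted them per gene with featureCounts 2.0.0 on Ensembl 99 annotation, and deposited raw counts in 2 tables, 1 per sequencing run. Whether counting used strand or multimapping reads is not given in the sources used here. Libraries were prepared from poly-A RNA with template switching.

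Gene symbols and biotypes were matched to GENCODE M21 (54147 of 54373 identifiers). Low protein-coding genes were removed by filterByExpr (at least 10 counts, total of at least 15). After TMM normalization, quasi-likelihood fits were made in edgeR 4.0.16 (R 4.3.3), with Benjamini-Hochberg adjustment over all genes tested and a threshold of 0.05. Each table was fitted on its own for genotype, and all 22 libraries in 1 fit for state and interaction. SE was derived from the F statistic. Correlations between genes used log2 CPM with 1 count added before scaling, and those between libraries used log2(CPM + 1). Alternatives were a likelihood ratio test, DESeq2 1.42.0, RLE normalization, no filter, no dominant predicted genes (such as Gm10800, up to 71.9% of a library), a replicate block, a hematopoietic marker score as covariate, and each library left out. The removal of AhR-/- HDM replicates 3 and 4 together was chosen after seeing the data. Scripts were tested on simulated data.

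The genes described, the gene lists and the tests were chosen with earlier results of these data known. Genes named from each list were, per contrast, up to 3 in each direction with the lowest p among those past the threshold. Genes most like the described ones were the 10 with the highest r to their mean, and the 3 highest for Klf2 and for Pim3. Promoter sequences are from RefSeq, GRCm38.p6.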

Additional observations from a re-analysis of the deposited data

Results flagged for a closer look

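Of 34 groups of 4 libraries tested for a library far from the others, 1 was flagged, and chance flags about 1 in 20 groups, which is 1.7 here. Fos in CYP1B1-/- HDM replicate 3 was at 113 CPM, with the other 3 libraries at 135 to 139 CPM, and the gap took 0.875 of the group's range. Groups of 3 libraries were not tested, nor were Klf2 and Pim3 in WT and CYP1B1-/- ECs, whose values there chose these genes. Klf2 in WT HDM replicate 4, at 3.21 CPM against 6.85 to 7.13 CPM in the other 3, is one of these values and is given as a description.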

How the results depend on the processing

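State, sequencing run and, for most libraries, Y-linked reads cannot be told apart, and low depth limits Fosb and Klf2 in the shallow HDM libraries. RLE normalization and leaving out the dominant predicted genes moved no count of calls by over 1.5 times, but each added the call of Atf3 between states in CYP1B1-/- ECs, as did the likelihood ratio test, DESeq2 and the fit without the filter. DESeq2 also called Dusp1 in WT, Klf2 in AhR-/- and Egr1 in CYP1B1-/- ECs between states. The cause of the changes below was not tested.

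Genes past the threshold between AhR-/- and WT at steady state numbered 11 by the likelihood ratio test and 13 by DESeq2 (0 in the main fit), those for CYP1B1-/- 5 by DESeq2 (2 in the main fit), those between CYP1B1-/- and WT after HDM 1 by either tool (0), and those of the AhR-/- interaction 221 and 1236 (0). Without the filter, 1802 genes differed between AhR-/- and WT after HDM (3129 with it), Dusp1 was at 0.011 in CYP1B1-/- against WT after HDM and Jun at 0.019 between states in CYP1B1-/- ECs.

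Replicate numbers shared by groups did not pair the libraries: same-numbered libraries correlated above 0.1 in 2 of 8 pairs at steady state and 3 of 12 after HDM. With the replicate block, 0 genes passed for CYP1B1-/- at steady state and 1 for AhR-/- after HDM, the log2 fold changes of Fosb (-0.25, AhR-/- after HDM), Egr1 (-0.060, CYP1B1-/- after HDM) and Jun (-0.094, AhR-/- between states) changed sign, and the counts of described genes past the threshold were as in the main fit.

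Where the score of hematopoietic markers entered as a covariate, 0 genes passed for AhR-/- against WT after HDM. Between states, 11 genes and 0 of the described genes passed in WT, 544 and 1 in AhR-/-, and 121 and 0 in CYP1B1-/- ECs. Marker sums did not overlap between the states in WT and CYP1B1-/- ECs, nor between AhR-/- and WT ECs after HDM. The covariate can hardly be told apart from the comparison in these cases. Signs changed for Fos at steady state in CYP1B1-/- (-0.16), for Fos (0.30), Jun (0.078), Atf3 (0.42) and Ier2 (0.26) in AhR-/- after HDM, and for Jun (0.084), Junb (0.094) and Ier2 (0.16) in CYP1B1-/- after HDM. Between states they changed for Jun (-0.33), Atf3 (-0.20) and Klf2 (-0.047) in WT, Jun (-0.68), Junb (-0.33) and Atf3 (-0.32) in AhR-/-, and Fosb (-0.028) and Atf3 (-0.73) in CYP1B1-/- ECs, and for Ier2 in the AhR-/- interaction (0.10).

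Without AhR-/- HDM replicates 3 and 4, 0 genes passed for AhR-/- against WT after HDM, and 8 of the described genes passed between states in AhR-/- ECs. Fos (0.34), Jun (0.11) and Ier2 (0.18) changed sign against WT, as did Fos (0.36), Jun (0.026) and Ier2 (0.55) in the interaction.

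Leaving out 1 library at a time gave 0 to 4137 genes for AhR-/- against WT after HDM, with 0 to 1 of the described genes, and 0 to 1 genes for AhR-/- and 0 to 4 for CYP1B1-/- at steady state. Between states in AhR-/- ECs it gave 1532 to 3935 genes and 4 to 8 of the described genes, and in CYP1B1-/- ECs 3 to 6 of the described genes. The AhR-/- interaction had 0 to 1017 genes and 0 to 1 of the described genes, and the CYP1B1-/- interaction 0 to 1 genes. Signs changed within these ranges: Fosb from -0.60 to 0.42 in AhR-/- after HDM, Egr1 from -0.19 to 0.31 and Dusp1 from -0.50 to 0.074 in CYP1B1-/- after HDM, Jun from -0.36 to 0.36 and Junb from -0.26 to 1.47 between states in AhR-/-, Jun from -0.31 to 0.33 between states in CYP1B1-/-, Fosb from -0.23 to 0.86 and Ier2 from -0.85 to 0.15 in the AhR-/- interaction, and Egr1 from -0.53 to 0.44 in the CYP1B1-/- interaction. At steady state they changed in AhR-/- for Fos (-0.27 to 0.15), Egr1 (-0.72 to 0.23), Jun (-0.10 to 0.19), Dusp1 (-0.29 to 0.11) and Junb (-0.045 to 0.12), and in CYP1B1-/- for Ier2 (-0.10 to 0.45), Fos (-0.29 to 0.38), Egr1 (-0.55 to 0.41) and Atf3 (-0.22 to 0.040).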
